A study of Mus musculus with 8 samples.

Results

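The genes described here encode the core proteins of microRNA function: the Argonautes (Ago1, Ago2, Ago3 and Ago4), the GW182 proteins (Tnrc6a, Tnrc6b and Tnrc6c) and the processing enzymes with their partner (Dicer1, Drosha and Dgcr8). They were taken by gene symbol, and all 10 were present among the 24639 gene entries of the count lists. All 10 passed the filter on low counts in every comparison. MicroRNA hairpins are cut out of long nuclear transcripts by the Drosha and Dgcr8 complex, are trimmed in the cytoplasm by Dicer1, and are then loaded into an Argonaute protein. The microRNA guides the Argonaute to sites that lie mostly in 3′-UTRs of mRNAs, where GW182 proteins bind the Argonaute and recruit the enzymes that shorten poly(A) tails and remove caps. Of the mammalian Argonautes, Ago2 is the well-known slicer of fully paired targets, and the mRNAs of this machinery are themselves bound and regulated by microRNAs in many cell types.

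The RNA came from primary mouse glomerular mesangial cells (MMC), the contractile support cells of the kidney filter, of the C57BL/6J (Jackson lab) strain, grown untreated in RPMI medium with serum. MMC were prepared from pooled glomeruli of wild-type mice (WT MMC) or of mice homozygous for a short CRISPR-Cas9 deletion at miR-379 (miR-379KO MMC), and the methods tie MMC to adult male mice without stating their age for these libraries. Each genotype was measured by poly(A) mRNA sequencing (total RNA) and by sequencing of the RNA recovered from UV cross-linked, sonicated cells with anti-AGO2 beads (AGO2-IP), giving 4 groups of 2 libraries, A and B. The miR-379KO MMC are also called the knockout, and paired values are given for library A before B. The study called A and B independent samples, but the labels name no separate animals or cultures, so p-values measure the spread between these libraries only. In such bulk RNA, fewer cells of a type and less RNA per cell cannot be told apart.

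Gene counts summed to between 17168230 and 22660743 in the total RNA libraries and to between 5587611 and 17095021 in AGO2-IP. Without the ribosomal precursor Rn45s and the Lars2 row, which took most AGO2-IP counts, only 1115782 to 1875037 counts remained per AGO2-IP library. Reads that the strand-specific counting placed on no gene made up 46.6% and 49.7% of uniquely aligned reads in WT AGO2-IP, and 73.4% and 76.4% in the knockout. Such reads can lie in introns or on the opposite strand of a gene as well as between genes. A level for genes without detected poly(A) mRNA was therefore read from 5193 protein-coding genes without a single count in total RNA. It was 1.35 and 0.913 counts per kilobase of exon in WT, and 3.08 and 3.52 in the knockout. This is called the silent-gene level below. It pools all of these genes, so single genes can lie off it, and their spread was not measured. Expressed mRNAs without a poly(A) tail would also show no count in total RNA. Of 6 mesangial markers, Acta2, Pdgfrb, Des and Cspg4 stood at 70.1 CPM (counts scaled to library size) or more in every total RNA library, while Itga8 reached at most 2.27 CPM and Gata3 at most 3.76 CPM. The 6 summed to 7314 to 10090 CPM for WT and 11020 to 11090 CPM for the knockout. Of 5 podocyte markers, Nphs1 reached at most 0.239 CPM, and the list summed to 240.3 to 628.5 CPM for WT and 328.8 to 570.2 CPM for the knockout, through Synpo, Wt1 and Podxl. The 5 endothelial markers summed to at most 2.09 CPM and the 5 leukocyte markers to at most 5.09 CPM. The 5 tubular markers summed to 2.62 and 47.0 CPM in the WT libraries and to 9.46 and 26.9 CPM in the miR-379KO libraries, with Umod and Slc34a1 at 0. The Mir379 entry, the targeted gene, held 0 counts in all total RNA libraries, 0 and 4 in WT, and 1 and 0 in the knockout, too few to check the deletion.

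The microRNA missing from the knockout and its matches in the 10 genes are shown because the study removed this microRNA. Only the seed of the 5p arm was searched, and only in 3′-UTRs. Capitals mark the seed (bases 2 to 8) in the microRNA and its GTCTACC match in the sites, read on the strand of the mRNA from GRCm38.p6, the build that mm10 names, with RefSeq annotation. miR-379-5p lies on the plus strand at chr12:109709065-109709085, the Tnrc6b site on the plus strand at chr15:80929916-80929922 and the Dgcr8 site on the minus strand at chr16:18254532-18254538.
mmu-miR-379-5p: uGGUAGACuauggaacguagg
Tnrc6b 3′-UTR site: tccgtccttagGTCTACCatgtttgggtg
Dgcr8 3′-UTR site: tgcaggtttttGTCTACCtatgctcattg

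The match therefore occurred in 2 of the 10 genes, at base 440 of the 11610-base Tnrc6b 3′-UTR and at base 984 of the 1558-base Dgcr8 3′-UTR. Over the genome, 772 of 19119 entries with an annotated 3′-UTR (4.04%) held it on the mRNA strand. The median 3′-UTR of those entries was only 828 bases, and no share at matched length was taken, so the 2 shares do not compare directly. A match is a string of letters and not a measured site. The Argonaute and GW182 mRNAs have long 3′-UTRs: 5283 bases in Ago2, 4796 in Ago3, 4491 in Ago1 and 3682 in Ago4, at the 97.8, 97.0, 96.2 and 93.4 percentiles of these entries. The 11610 bases of Tnrc6b fell at the 99.9 percentile, but the 2345 of Tnrc6a and 2588 of Tnrc6c only at the 82.7 and 85.6 percentiles. Dicer1 carried 3851 bases and Drosha only 169 bases, the 14th percentile. Ago4, Ago1 and Ago3 are neighbours on the minus strand of chromosome 4 (chr4:126326994-126533586), while Ago2, Tnrc6b and Drosha lie apart from each other on chromosome 15.

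In total RNA, Ago2 was the most abundant Argonaute mRNA in each of the 4 libraries, followed by Ago1, with Ago3 and Ago4 far below. Levels between genes are given as RPKM, the CPM, with TMM-scaled library sizes, per kilobase of annotated exon. Ago2 stood at 23.8 and 15.6 RPKM for WT and 14.4 and 18.1 RPKM for the knockout. WT A was the highest library, and the miR-379KO libraries lay on both sides of WT B. Ago1, a close relative that lacks efficient slicing, measured 10.8 and 8.60 RPKM for WT and 9.08 and 8.61 RPKM for the knockout. Ago3 measured 2.46 and 1.43 RPKM for WT and 1.91 and 1.87 RPKM for the knockout. Ago4, which has no known slicing activity, measured 0.457 and 0.336 RPKM for WT and 0.400 and 0.297 RPKM for the knockout, from 33 to 60 counts per library. The genotypes overlapped for all of them.

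Within the summed RPKM of the 4 Argonautes, Ago2 contributed 60.5% ± 3.38 (SD, n = 4 libraries), Ago1 31.7% ± 2.93, Ago3 6.49% ± 0.761 and Ago4 1.27% ± 0.215. The Ago2 share ran from 55.9% to 63.4% and the Ago1 share from 28.8% to 35.2%, so these ranges did not meet. Ago2 exceeded Ago1 in 4 of 4 libraries, by 0.93 ± 0.21 on the log2 scale (1.91-fold). Ago1 exceeded Ago3 by 2.29 ± 0.20 (4.90-fold) and Ago3 exceeded Ago4 by 2.36 ± 0.24 (5.12-fold), again in 4 of 4 libraries. An exact two-sided sign-flip permutation test over the 4 libraries gave p = 0.125 for each of the 6 pairs, raw and adjusted over the 6, which is the smallest value that 4 libraries allow. The order was the same with the longest transcript, with the coding length and without any length scaling, under which the Ago2 share was 60.4%, 63.2% and 62.5%.

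**Figure D1:**
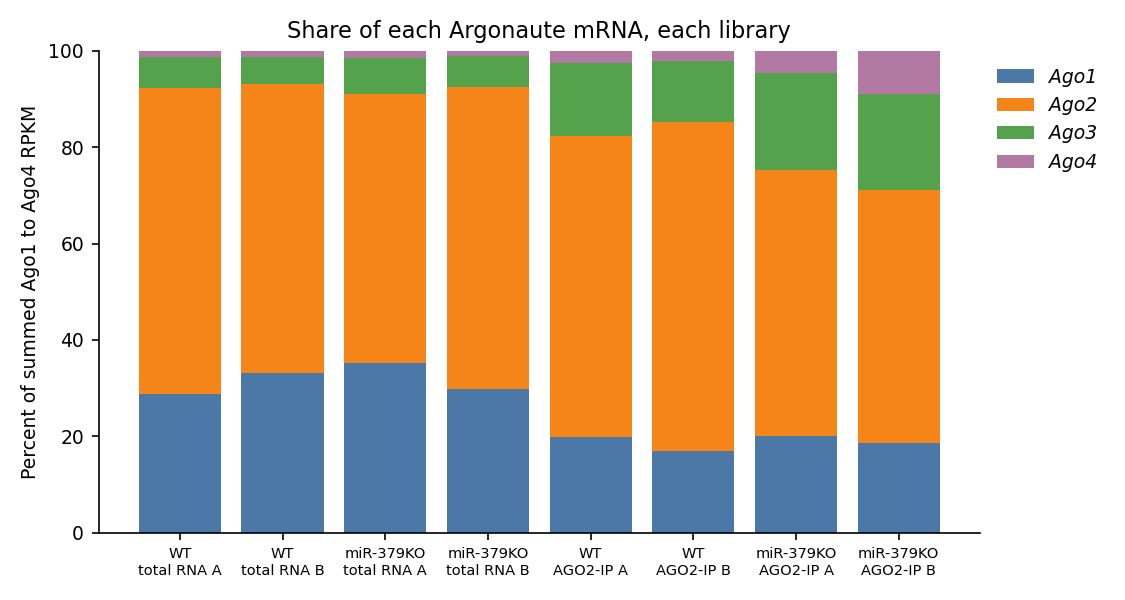
Each bar is 1 library and each colour the percent of the summed Ago1 to Ago4 RPKM that 1 Argonaute mRNA contributed. Ago2 took 55.9% to 63.4% in total RNA, and in AGO2-IP its share was 62.5% and 68.2% for WT and 55.3% and 52.4% for the knockout.

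Among the GW182 mRNAs, all of which were expressed, Tnrc6a had the highest level per exon length. It measured 15.4 and 9.37 RPKM for WT and 10.3 and 10.5 RPKM for the knockout. Tnrc6b measured 8.33 and 4.81 RPKM for WT and 5.11 and 5.12 RPKM for the knockout. Tnrc6c measured 6.64 and 4.64 RPKM for WT and 4.66 and 4.16 RPKM for the knockout. WT A was again the highest library for each, and the other 3 libraries lay close together. The study's methods give single-end or paired-end reads under total RNA without naming libraries. They describe the AGO2-IP data as paired-end and handled in the way of the single-end samples. Any part of the layout in the WT A values was not tested. Tnrc6a made up 51.2% ± 1.34 of the summed GW182 RPKM, Tnrc6b 26.1% ± 0.911 and Tnrc6c 22.7% ± 1.59 (SD, n = 4). Tnrc6a was above Tnrc6b in 4 of 4 libraries by 0.97 ± 0.06 on the log2 scale, and Tnrc6b above Tnrc6c by 0.20 ± 0.13. The place of Tnrc6b depended on the length used, because its transcript is long: with the coding length it came to 18.9 against 16.9 for Tnrc6a, and without length scaling to 102.4 against 96.4 CPM. The summed GW182 RPKM was 0.811 and 0.725 times the summed Argonaute RPKM for WT and 0.776 and 0.684 times for the knockout.

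Per exon length, the nuclear processing genes Drosha and Dgcr8 stood high among the 10. Drosha, the nuclear RNase III, measured 17.3 and 20.6 RPKM for WT and 17.6 and 23.99 RPKM for the knockout. Dgcr8, its RNA-binding partner, measured 12.9 and 12.8 RPKM for WT and 12.4 and 13.9 RPKM for the knockout, a narrow range. Dicer1, the cytoplasmic RNase III, measured 9.40 and 6.19 RPKM for WT and 6.61 and 6.95 RPKM for the knockout. Drosha was 1.34 to 1.72 times Dgcr8, while Dicer1 was 0.290 to 0.544 times Drosha, with the highest of these ratios in WT A. By mean RPKM the order of the 10 was Drosha, Ago2, Dgcr8, Tnrc6a, Ago1, Dicer1, Tnrc6b, Tnrc6c, Ago3 and Ago4. Of the 9 neighbouring pairs, Drosha was above Ago2 in only 3 of 4 libraries and Dgcr8 above Tnrc6a in only 3 of 4, so neither pair differed beyond its spread. The other 7 pairs kept their order in all 4 libraries, at the smallest possible p. With the coding length the order began with Ago2, Ago1, Dgcr8 and Drosha, and without length scaling Drosha was the 4th and Dgcr8 the 7th.

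**Figure D2:**
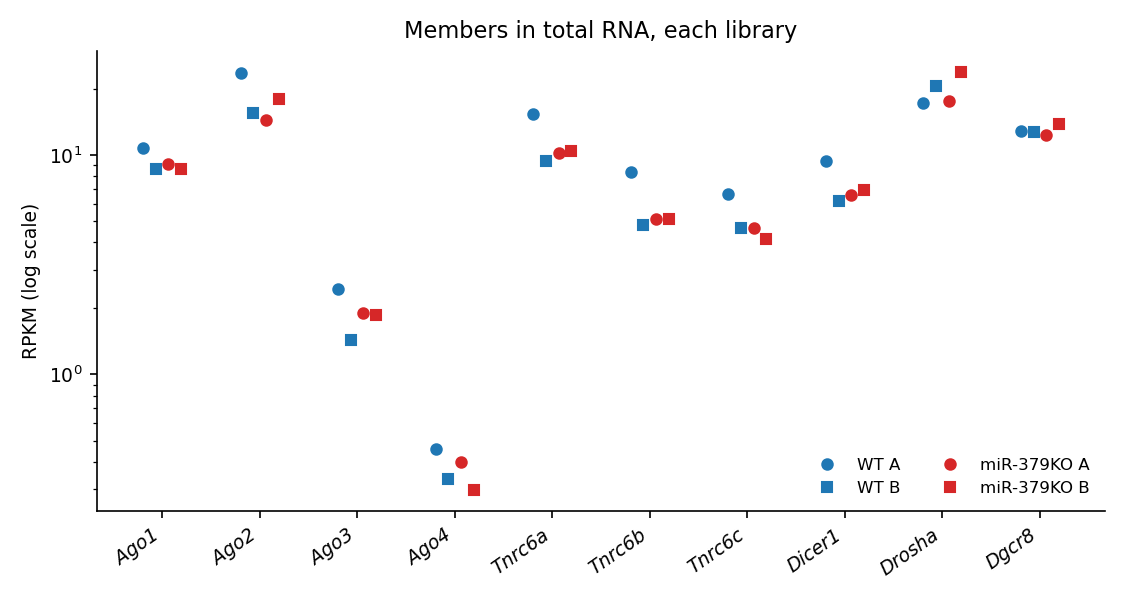
Points give the RPKM of each gene (log axis) in the 4 total RNA libraries, blue for WT, red for miR-379KO, circles for A and squares for B. Drosha and Ago2 lie highest and Ago4 lowest, and WT A is the highest point for 8 of the 10 genes.

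The exons of Dgcr8 carry a pair of microRNA hairpins in the mRNA sense, and the Drosha and Dgcr8 complex is known to cut Dgcr8 mRNA there. Reads on both the hairpin and the exon were ambiguous in the counting. The mature arms of the hairpin at chr16:18284239-18284317 are shown with the seed in capitals.
mmu-miR-1306-5p: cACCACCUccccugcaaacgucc
mmu-miR-1306-3p: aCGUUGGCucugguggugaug
Mir1306 held 0 counts in all 8 libraries, as did Mir5113, which lies within the 3′-UTR of Tnrc6b (82 bases shared). Both hairpins lie wholly within exons of their host genes on the same strand, so these 0 counts say nothing about the hairpins. Dgcr8 also shares 809 exon bases with Trmt2a on the opposite strand, which the strand-specific counting kept apart.

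No difference between miR-379KO and WT MMC was detected for any of the 10 mRNAs in total RNA. In edgeR's quasi-likelihood test with Benjamini-Hochberg adjustment, 0 of 10 passed an adjusted p of 0.05 against 0% of the 12321 genes tested. At an unadjusted p under 0.05 there were 0 of 10, against 91 of all 12321 genes, and DESeq2 called 0 of 10. The 91 are fewer than that threshold gives without any change, so 0 of 10 says little by itself. The study's own cutoff (over 1.5-fold with an unadjusted p under 0.05) also took 0 of 10, with 0.682% of all genes past it. The genotypes' CPM ranges overlapped for all 10, while 19% of all genes showed no overlap. Estimated log2 fold changes of miR-379KO against WT ran from −0.36 ± 0.30 (SE) for Tnrc6b to 0.14 ± 0.24 for Drosha. For Ago2 the estimate was −0.27 ± 0.28, with a 95% confidence interval of −0.94 to 0.40. For both mRNAs that hold the seed match the intervals were −1.08 to 0.36 for Tnrc6b and −0.47 to 0.53 for Dgcr8. The estimate was below 0 for 8 of 10 genes, with a median of −0.19, against 51.3% and −0.01 over all genes. That count rested on 1 library, WT total RNA A: without it, 1 of 10 was below 0 and the median was 0.065.

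**Figure D3:**
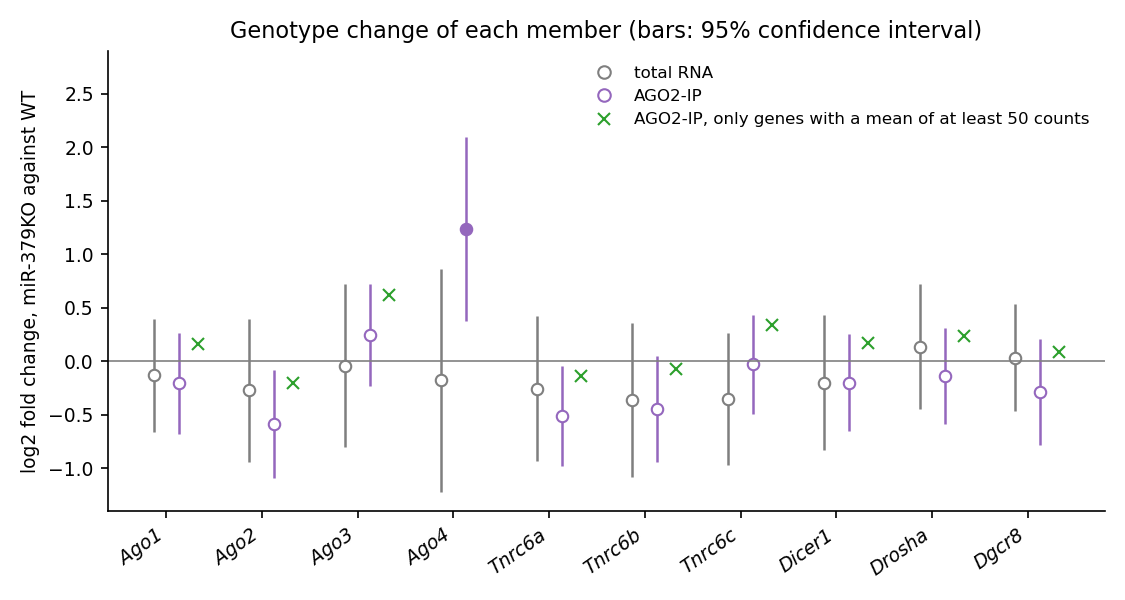
Log2 fold change of miR-379KO against WT for each gene in total RNA (grey) and AGO2-IP (purple), with 95% confidence intervals and filled points for an adjusted p under 0.05. Green crosses give the AGO2-IP estimate over genes averaging 50 or more counts, which lie above the purple points for all 9 genes left.

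In AGO2-IP, which measures the mRNAs recovered with AGO2 protein, read counts for the 10 genes were low, and 1 of the 10, Ago4, passed the test between genotypes, with counts at or near the silent-gene level. Ago2 mRNA was recovered with 371 and 455 counts for WT and with 262 and 223 counts for the knockout. These were 36.4, 52.6, 30.7 and 28.5 CPM, so both miR-379KO libraries lay below both WT libraries. The log2 fold change was −0.58 ± 0.24 (SE), with an edgeR adjusted p of 0.0709, and did not pass. It passed without WT AGO2-IP A (−0.90, adjusted p = 0.0264 in edgeR) and without a filter on low counts (−0.80, adjusted p = 0.0309 in edgeR), while its adjusted p was 0.6002 among genes averaging 50 or more counts. Tnrc6a gave 335 and 301 counts for WT and 210 and 178 for the knockout, a log2 fold change of −0.51 ± 0.23 with an adjusted p of 0.0855 in edgeR. Tnrc6b gave 477 and 486 counts for WT and 349 and 270 for the knockout, a log2 fold change of −0.45 ± 0.24 with an adjusted p of 0.161 in edgeR. Dgcr8, the other gene with a seed match, gave 90 and 84 counts for WT and 64 and 60 for the knockout, a log2 fold change of −0.29 ± 0.24 that did not pass.

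Ago4 was the gene that passed, higher in the knockout by 1.23 ± 0.42 on the log2 scale with an adjusted p of 0.0278 in edgeR. By direction, 1 of 10 was called higher and 0 of 10 lower, against 21.4% higher and 9.52% lower (30.9% in all) of the 13505 genes tested, so the share of the 10 called was below the background. Its counts were 12 and 12 for WT and 18 and 31 for the knockout. For its exon length the silent-gene level alone came to 8.81 and 5.96 counts for WT and to 20.1 and 23.0 counts for the knockout. That level equalled 73.4% and 49.7% of the Ago4 counts for WT and 112% and 74.1% for the knockout. The call was absent with DESeq2 (log2 fold change 1.21, adjusted p = 0.237), with all 8 libraries in one fit (1.09, adjusted p = 0.134 in edgeR), without a filter (1.02, adjusted p = 0.0501 in edgeR), without miR-379KO AGO2-IP B (0.70, adjusted p = 0.465 in edgeR) and without WT AGO2-IP A (1.04, adjusted p = 0.105 in edgeR). Once the silent-gene level was taken off, Ago4 dropped out at the filter on low counts.

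**Figure D4:**
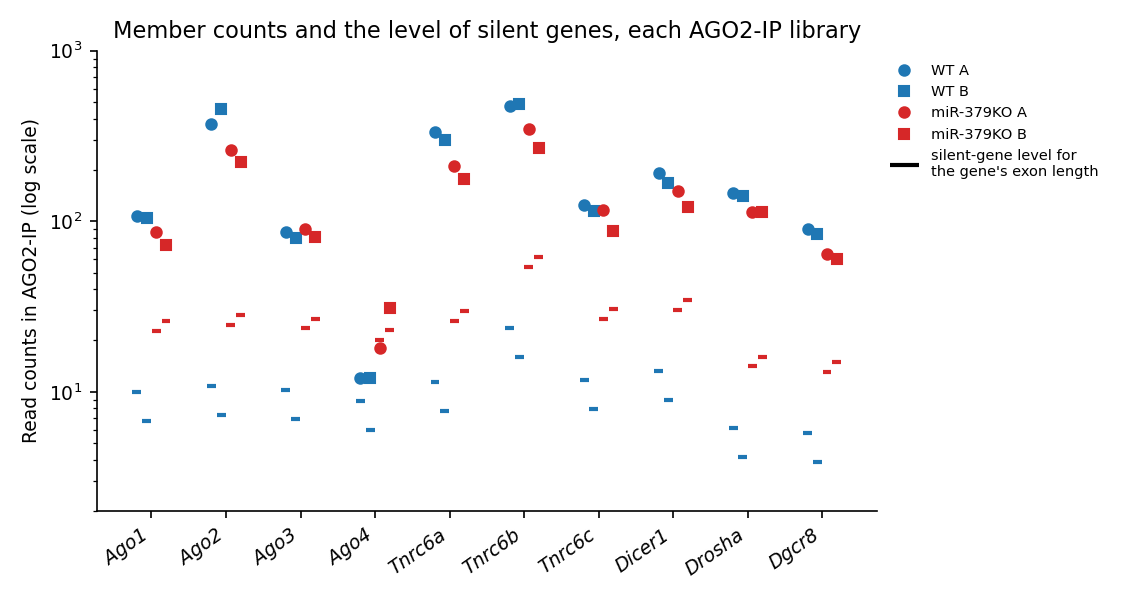
Points give the AGO2-IP read counts of each gene (log axis) in the 4 libraries, and short bars of the same colour give the silent-gene level for that gene's exon length in that library. Ago4 sits at or near its bars, while Ago2 lies well above them in all 4 libraries.

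The silent-gene level made up a larger part of the counts in the knockout for every one of the 10 genes. For Ago2 it equalled 2.92% and 1.61% of the counts for WT and 9.45% and 12.7% for the knockout. For Ago3 it equalled 12.0% and 8.72% for WT and 26.2% and 33.2% for the knockout. Ago3 counts were 86 and 80 for WT and 90 and 81 for the knockout, and the log2 fold change was 0.24 ± 0.23. Ago1 counts were 108 and 104 for WT and 87 and 73 for the knockout, with a log2 fold change of −0.21 ± 0.23. Tnrc6c, Dicer1 and Drosha had log2 fold changes of −0.03 ± 0.23, −0.20 ± 0.22 and −0.14 ± 0.22. CPM did not overlap between genotypes for 8 of the 10 genes, 6 lower (Ago1, Ago2, Tnrc6a, Tnrc6b, Dicer1 and Dgcr8) and 2 higher (Ago3 and Ago4) in miR-379KO, against 68.4% of all genes, 32.2% lower and 36.1% higher.

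The direction of these AGO2-IP values depended on which genes were kept and on the silent-gene level. As fitted, 8 of 10 estimates were below 0, with a median of −0.20 against −0.01 over all genes, of which 50.6% were below 0. When only the 4971 genes averaging 50 or more counts were kept, 3 of the 9 remaining genes (Ago2 at −0.21, Tnrc6a at −0.14 and Tnrc6b at −0.08) were below 0 and the median was 0.16. With the silent-gene level taken off, 5 of 9 were below 0 and the median was −0.04. With TMM factors from genes present in every total RNA library 7 of 10 were below 0, with a median of −0.07 (0.12 over all genes), and without a filter 8 of 10, with a median of −0.41 (0.36 over all genes). Under the study's cutoff 1 of 10 passed, against 39.4% of all genes.

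Shares within the Argonautes do not depend on library scaling or on the filter, but they do depend on the silent-gene level. In WT AGO2-IP A and B, Ago2 made up 62.5% and 68.2% of the summed Argonaute RPKM, and for the knockout 55.3% and 52.4%, a difference of −11.5 percentage points without overlap. Ago3 made up 15.2% and 12.6% for WT and 20% in both knockout libraries. Exact two-sided permutation tests of 2 libraries against 2 gave p = 0.333 for both, the smallest value possible. With the silent-gene level taken off, the Ago2 share was 65.4% and 70.2% for WT and 62.9% and 62.2% for the knockout, a difference of −5.23 points, and the Ago3 share was 14.5% and 12.0% for WT and 18.5% and 18.2% in miR-379KO. In total RNA the Ago2 share was 63.4% and 60.0% for WT and 55.9% and 62.7% for the knockout, with overlap.

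The genotype change in AGO2-IP was compared with that in total RNA by an interaction term over all 8 libraries. By edgeR's quasi-likelihood test, 0 of 10 genes passed, against 0% of 17429 genes. There were 0 of 10 at an unadjusted p under 0.05, where 2733 of all genes stood (15.7%, all of them also over 1.5-fold), and DESeq2 called 0 of 10. The estimate for Ago4 was 1.19 on the log2 scale, with a 95% interval of −0.19 to 2.56, and that for Ago2 was −0.54, with an interval of −1.34 to 0.26. As fitted 7 of 10 estimates were below 0, and 1 of 10 with the silent-gene level taken off, where Ago2 was at 0.11 and 0 of 10 passed.

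Relative to total RNA, Ago3 and Tnrc6b were higher in AGO2-IP in both genotypes. Ago4 also passed in both, but its AGO2-IP counts less the silent-gene level were only 3.19 and 6.04 for WT and 0 and 8.04 for the knockout, and with that level taken off it did not pass in WT (0.22, adjusted p = 0.898 in edgeR) or in the knockout (1.04, adjusted p = 0.434). The assays also differed in library preparation, a poly(A) mRNA method against adapter ligation to the recovered fragments. By the methods they may have differed in read layout as well. Neither can be told apart from recovery with AGO2. In WT MMC 5 of 10 genes passed, all higher in AGO2-IP, against 38.7% of genes higher and 12.8% lower (51.6% in all). In edgeR the log2 differences were 1.76 ± 0.27 for Ago3 (adjusted p = 7.17e-05), 1.36 ± 0.27 for Tnrc6b (adjusted p = 0.000566), 1.48 ± 0.49 for Ago4, 0.88 ± 0.25 for Tnrc6a and 0.68 ± 0.27 for Ago2. Drosha at −0.02 ± 0.25, Dgcr8 at −0.06 ± 0.23 and Ago1 at −0.16 ± 0.23 did not pass. The call for Ago2 was lost in DESeq2, with RLE factors (adjusted p = 0.0800 in edgeR) and without any 1 of 7 libraries, with the adjusted p between 0.0741 and 0.889 there. In WT, Tnrc6a lost its call without any 1 of the 4 AGO2-IP libraries (0.51 to 0.68, adjusted p of 0.0681 to 0.205 in edgeR). Ago4 lost its call with DESeq2 (adjusted p = 0.0538) and without WT AGO2-IP A (1.37), WT AGO2-IP B (1.04) or miR-379KO AGO2-IP B (1.24). Without WT total RNA A, Tnrc6c (0.68) and Dicer1 (0.67) passed in WT. In miR-379KO MMC 4 genes were higher and 1 lower, against 43.9% higher and 25.9% lower (69.8% in all). The higher genes were Ago4 at 2.67 ± 0.46, Ago3 at 1.81 ± 0.27, Tnrc6b at 1.03 ± 0.27 and Tnrc6c at 0.65 ± 0.24, and Dgcr8 was lower at −0.59 ± 0.24. Tnrc6c lost its call there without miR-379KO total RNA A (0.72), total RNA B (0.48) or AGO2-IP A (0.49), and Dgcr8 without any 1 of the 4 knockout libraries (−0.70 to −0.59). Ago1 at −0.46 and Drosha at −0.50 did not pass, but did when either WT total RNA library was left out (−0.56 to −0.51). Ago3 and Tnrc6b passed in both genotypes under every alternative run. The median of all genes was itself 0.49 in the WT comparison and 0.47 in the knockout, and Ago2 in WT and Tnrc6c in the knockout lay within 1 SE of it. With the silent-gene level taken off, where 3373 of 13490 genes passed in WT and 5571 in the knockout, 3 of the 10 passed in WT (Ago3, Tnrc6a and Tnrc6b, with Ago2 at 0.77 and an adjusted p of 0.0515 in edgeR). In the knockout 6 then passed, all higher, among them Ago2 (0.88), Tnrc6a (1.08) and Dicer1 (0.78), which had not passed before, while Dgcr8 (−0.0480) no longer did. The median of all genes was then −0.05 and −0.12. With the replicate letter as a block within each genotype, Tnrc6c (0.57) and Dicer1 (0.51) also passed in WT and Drosha (−0.49) in the knockout.

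**Figure D5:**
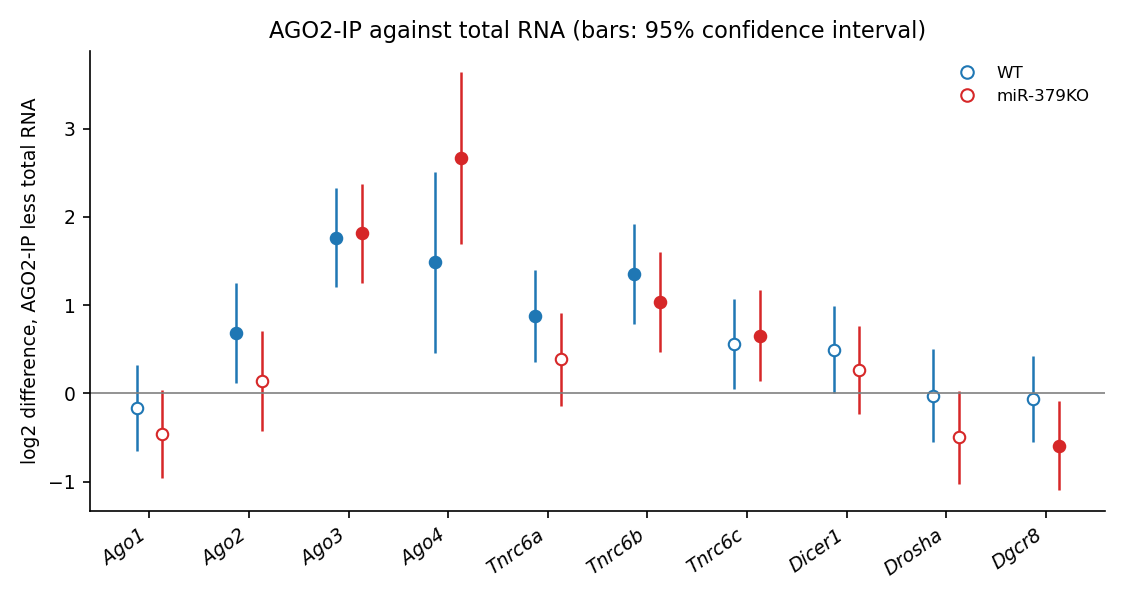
Log2 difference of AGO2-IP less total RNA for each gene in WT (blue) and miR-379KO (red), with 95% confidence intervals and filled points for an adjusted p under 0.05. Ago3 and Tnrc6b are filled and above 0 in both genotypes, while Ago1, Drosha and Dgcr8 lie below 0.

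By mean RPKM in AGO2-IP the order was Ago2 (4.61), Tnrc6a (3.39), Drosha (3.18), Tnrc6b (2.55), Dgcr8 (1.99), Dicer1 (1.80), Tnrc6c (1.45), Ago1 (1.43), Ago3 (1.26) and Ago4 (0.331). Ago2 was above Tnrc6a in 4 of 4 libraries, while Tnrc6a was above Drosha and Dgcr8 above Dicer1 in 3 of 4 each. Ago1 was above Ago3 in 3 of 4 libraries by 0.18 ± 0.27 on the log2 scale, which is within the spread, whereas in total RNA it was above Ago3 in all 4. Tnrc6c and Ago1 also changed places, 2 libraries against 2. The AGO2-IP order depended on the length used: with the coding length Tnrc6b was the 2nd and Drosha the 7th. Without length scaling Tnrc6b (44.6 CPM) was above Ago2 (37.05 CPM) in 4 of 4 libraries.

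Among the genes whose CPM followed that of Ago2 most closely over the 8 libraries were Ankrd11, a chromatin regulator, Adam17, a membrane sheddase, Lrp12, a receptor of the LDL receptor family, and Bptf, a chromatin remodelling subunit. Their log2 CPM, each less its own mean, differed from that of Ago2 by a root-mean-square of 0.101, 0.109, 0.117 and 0.120, against a median of 0.542 over 4855 genes. Of the other genes described here, Tnrc6a (0.182) and Dicer1 (0.190) came closest to Ago2. All of them share a step between assays, for Ago2 from 116 to 190.7 CPM in total RNA to 28.5 to 52.6 CPM in AGO2-IP. These CPM used library sizes fitted within each assay, so the step does not measure a difference in level between assays. With all 8 libraries scaled together, Ago2 was instead higher in AGO2-IP, by 0.68 on the log2 scale in WT and by 0.14 in the knockout, where it did not pass.

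Of 61 other genes of the microRNA pathway, none of the 55 tested passed in total RNA, with 0 at an unadjusted p under 0.05 in edgeR and 0 called by DESeq2. Their median log2 fold change was −0.05. The smallest p-values below 0 belonged to Zcchc11, which adds uridines to precursors (−0.50 ± 0.27), and to the decapping enzyme Dcp2 (−0.37 ± 0.27). Above 0 they belonged to the cap-binding Eif4e2 (0.18 ± 0.22) and the export GTPase Ran (0.29 ± 0.34). None of these passed.

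In AGO2-IP, 58 of the 61 were tested, 6 were lower and 3 higher in the knockout, against the same 9.52% and 21.4% of all genes, and their median was −0.32. That median was −0.002 (22 of 44 below 0) among genes averaging 50 or more counts and −0.015 (29 of 54) with the silent-gene level taken off. The lower genes were Ddx17, a helicase of the Drosha complex (−0.90 ± 0.26), the deadenylase subunit Cnot3 (−0.78 ± 0.27), Zswim8, known for directing Argonaute turnover (−0.70 ± 0.23), the decay helicase Upf1 (−0.67 ± 0.23), and, outside the naming rule and named after their values were seen, Ajuba (−0.66 ± 0.22) and Srrt (−0.60 ± 0.23). Ddx17 gave 778 and 772 counts for WT and 436 and 292 for the knockout, and its groups did not overlap. By role, 2 of 13 biogenesis and export genes, 1 of 6 loading and turnover genes, 1 of 15 deadenylation genes, 2 of 10 other Argonaute or GW182 partners and 0 of 12 decapping and decay genes were lower. The 6 of 58 lower genes lay near the 9.52% of all genes, so neither they nor any role are read as a result about the pathway. The 3 higher genes, Piwil2, Lin28b and Piwil4, act mainly in germ cells or early development and were named after their values were seen. Piwil2 gave 7 and 5 counts for WT and 22 and 27 for the knockout, where the silent-gene level came to 8.36, 5.65, 19.1 and 21.8 counts. Lin28b gave 10 and 7 counts against 26 and 16, with a silent-gene level of 7.29, 4.94, 16.7 and 19.0. Piwil4 gave 6 and 5 counts against 17 and 10, with a silent-gene level of 4.44, 3.01, 10.2 and 11.6. All 3 reached the minimum count of 10 mainly in the knockout and lay near that level, so the 3 calls are not read as pathway genes that rose. Cnot6l (0.57 ± 0.24) and Cnot7 (0.28 ± 0.26), the next by p-value averaging 50 or more counts, did not pass. With TMM factors from genes present in every total RNA library, 1 was lower and 4 higher, where 669 of all genes were lower and 3239 higher in place of 1286 and 2887. With the silent-gene level taken off 0 passed, and with DESeq2 2 passed.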

How the data were processed

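RNA from WT and miR-379KO MMC was measured in 8 libraries, 2 for each of 4 groups. The authors deposited whole-number counts of reads per gene for each library, without normalization. Per their methods and processing notes, reads were aligned to mm10 with TopHat and Bowtie2 and counted on RefSeq genes with HTSeq 0.6.0 in reverse-stranded mode at a minimum quality of 10. Lines naming no gene held 19.9% to 23.8% of reads in total RNA and 73.1% to 88.9% in AGO2-IP and were left out of library sizes and tests. The members and gene lists were chosen with earlier results of these data known.

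Counts were tested in edgeR 4.0.16 (R 4.3.3) with TMM factors, filterByExpr at a minimum count of 10, the robust quasi-likelihood F test and Benjamini-Hochberg adjustment over all genes, called under 0.05. Genotypes were compared on the 4 libraries of an assay, other contrasts on all 8. RPKM used union exon lengths of GRCm38.p6 (23602 entries matched by symbol, 716 by synonym, 321 not matched). The fit was tested on simulated counts that had the same spread for every gene and no extra silent-gene level in the knockout. That test therefore says nothing about AGO2-IP calls near that level. DESeq2 1.42.0 and other scalings, filters, lengths and samples served as alternatives.

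Named genes were the 10 members, Mir379, up to 4 pathway genes per direction with the largest change among those passing with a mean of at least 50 counts (or, where none passed, the 2 with the smallest p), and the 5 genes nearest to Ago2 in log2 CPM (pseudocount 0.5 counts). Not every gene so chosen is reported here. Counts limit precision to the intervals given, which cover the spread between libraries as estimated from all genes.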

Additional observations from a re-analysis of the deposited data

How the results depend on the processing

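The order Ago2, Ago1, Ago3, Ago4 in total RNA held under each length and without each library, with an Ago2 share of 59.5% to 62.0% when 1 library was left out, and the Ago2 share in AGO2-IP was 65.2% with the silent-gene level taken off. Depth limits the AGO2-IP values, since Ago4 had 12 to 31 counts. Of 724 refitted log2 values for the 10 genes, 609 kept their direction and side of the threshold and 56 changed sign, none of which passed in either fit. The causes were not tested.

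The count of the 10 genes called in AGO2-IP between genotypes (1) was 0 with DESeq2, 0 with a mean of at least 50 counts, 0 with all 8 libraries in one fit, 0 with the silent-gene level taken off, 2 without a filter (Ago2 and Tnrc6a, with Ago4 at an adjusted p of 0.0501 in edgeR), and 0 to 1 without 1 library. The count of pathway genes called there (9) was 2 with DESeq2, 16 without a filter, 1 with a mean of at least 50 counts, 1 with all 8 libraries in one fit, 5 with TMM factors from genes in every total RNA library, 0 with the silent-gene level taken off, and 2 to 8 without 1 library, lowest without WT AGO2-IP B or miR-379KO AGO2-IP B. The count of the 10 called in WT AGO2-IP against total RNA (5) was 3 with DESeq2 and 3 with the silent-gene level taken off. Of all genes, 8002 of 17429 and 3373 of 13490 passed in those fits. That in miR-379KO (5) was 5 with DESeq2 and 6 with the silent-gene level taken off, where 10979 of 17429 and 5571 of 13490 genes passed. Both counts changed when 1 library was left out.

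Values that changed sign were as follows, on the log2 scale. With a mean of at least 50 counts the AGO2-IP genotype values were 0.163 for Ago1, 0.338 for Tnrc6c, 0.169 for Dicer1, 0.237 for Drosha and 0.0857 for Dgcr8. The values beyond the total RNA change were 0.115 for Ago1, 0.0984 for Tnrc6b and 0.188 for Dicer1. AGO2-IP against total RNA gave 0.102 for Drosha and 0.0582 for Dgcr8 in WT and 0.066 for Ago1 and 0.0262 for Drosha in miR-379KO MMC. With the silent-gene level taken off, the values beyond the total RNA change were 0.0724 for Ago1, 0.111 for Ago2, 0.1196 for Tnrc6a, 0.223 for Tnrc6b, 0.247 for Dicer1 and 0.145 for Drosha, and AGO2-IP against total RNA gave 0.0676 in WT and 0.212 in miR-379KO MMC for Drosha. The AGO2-IP genotype values then were 0.137 for Tnrc6c, 0.0205 for Dicer1 and 0.247 for Drosha, and with TMM factors from genes in every total RNA library, which moved the median of all genes to 0.12, Tnrc6c was 0.105. Beyond the total RNA change, Dicer1 was 0.0396 with DESeq2 and 0.0394 with RLE factors (median of all genes 0.28 with both, to 2 decimals), and without a filter Ago3 was −0.0613 and Tnrc6c −0.0149. In total RNA Ago3 was 0.0463 with all 8 libraries in one fit.

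Without 1 library, total RNA values ran from −0.29 to 0.0446 for Ago1, −0.55 to 0.0664 for Ago2, −0.38 to 0.40 for Ago3, −0.39 to 0.0633 for Ago4, −0.57 to 0.15 for Tnrc6a, −0.70 to 0.0942 for Tnrc6b, −0.47 to 0.14 for Dicer1, −0.10 to 0.37 for Drosha and −0.0489 to 0.14 for Dgcr8. The AGO2-IP value of Tnrc6c ran from −0.26 to 0.0877. Beyond the total RNA change the ranges were −0.40 to 0.0804 for Ago1, −0.77 to 0.0369 for Ago2, −0.28 to 0.41 for Ago3, −0.67 to 0.11 for Tnrc6b, −0.0868 to 0.49 for Tnrc6c and −0.46 to 0.13 for Dicer1. AGO2-IP against total RNA ran from −0.42 to 0.20 for Drosha and −0.44 to 0.0088 for Dgcr8 in WT and from −0.0359 to 0.22 for Ago2 in miR-379KO MMC. A fit that left 1 library in a group assumed that it varied like the others.

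The letters A and B are shared by the groups. Same-letter libraries of the 2 genotypes did not deviate together (correlation of deviations −0.12 over 10763 genes in total RNA and 0.04 over 4971 in AGO2-IP). Between the assays of 1 genotype they did (0.32 over 5313 genes in WT and 0.27 over 4249 in miR-379KO), which is a hint from the data and not from the labels. With the letter as a replicate block within each genotype, added after seeing the data, 7 of the 10 passed in WT AGO2-IP against total RNA and 6 in miR-379KO. Of the 17429 genes tested, 9537 passed there in WT and 12797 in miR-379KO. Beyond the total RNA change 0 of the 10 passed, where 1108 of all genes passed in place of 0. With the replicate block across genotypes, the counts of the 10 called stayed at 0 in total RNA and 1 in AGO2-IP between genotypes, Ago3 in total RNA was 0.0040, and Tnrc6c passed in WT AGO2-IP against total RNA (0.57, adjusted p = 0.0455 in edgeR), for 6 called in place of 5. The crossed pairing as a block, added after seeing the data, called 0 of the 10 in total RNA, with Ago3 at 0.0067. The silent-gene and total RNA gene scalings were also added after seeing the data.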
